A study of Mus musculus with 17 samples.

Results

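Gene expression in spleens of mice given pppNS, an RNA agent of this series, was compared with that in 5 control spleens. The members were chosen by agent and tissue labels alone. They are 3 libraries labelled pppNS and 5 control libraries (2 vehicle and 3 naive), 8 of the 17 libraries in the series. All mice are of the strain written CB57BL/6NCrl in the labels, and their age, their sex and the time from injection to collection are not stated. The vehicle mice received jetPEI as a carrier control and the naive mice were untreated. One protocol text stands with every library. It describes SLRs carried by in vivo-jetPEI (N/P ratio 8), a polyethylenimine reagent that packs nucleic acids for delivery, and an intravenous dose of 25 µg of RNA in 200 µl. How pppNS was given is not stated apart from that text, and the labels do not spell out the name. The replicates were taken as separate mice, which the labels do not say; p-values measure only the spread between these libraries. A gene was tested when it reached 1 CPM (reads scaled to a normalised library size, the unit of the deposited table) in at least 2 of the 8 libraries, which 13528 of 38340 genes did.

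RIG-I, encoded by Ddx58, is a cytosolic sensor that recognises RNA ends carrying a triphosphate next to a base-paired stem. Bound to such RNA it engages the mitochondrial adaptor MAVS, and the kinases and transcription factors downstream switch on type I interferon genes and NF-kB targets. Secreted interferon then acts on its receptor in the same and neighbouring cells and raises a large set of interferon-stimulated genes, several of which encode RNA sensors. The spleen holds the cells that make such a response, mainly lymphocytes, macrophages and dendritic cells, and in mice it is also a site of red cell formation.

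The labelled tissue was checked against defining markers. Cd3e of T cells stood at 30.22 to 37.59 CPM in pppNS libraries and 31.38 to 43.46 CPM in controls. Spic of red pulp macrophages and Tlx1 of the splenic mesenchyme were present in every library. Total depth was 26.5 M to 42.8 M reads per library. Genes kept for analysis took 18.2 M to 29.6 M of them, and 1 read equalled 0.0175 to 0.0356 CPM.

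The third pppNS library stood apart from the other pppNS libraries. Its correlation with them over all genes tested was 0.8827 and 0.8916, against 0.9845 between replicates 1 and 2; genes are not independent replicates. The first principal component, with 57.95% of the variance, placed it at 104.8 and all other libraries between -39.55 and 14.29. Its CPM column, all lines included, summed to 1480000, against 836000 and 782000 in its mates and 696000 to 748000 in controls. CPM values given below for pppNS 3 are on this scale. Lines of the table without a gene name took 46.1% of the reads of pppNS 3. They took 35.1% and 33.7% in its mates and 28.1% to 31.9% in controls. Globin genes took 8.621% of its reads, against 1.356% and 1.141% in its mates and 0.5603% to 2.195% in controls. Ribosomal protein genes took 11.39% of its reads, against 4.716% and 5.172% in its mates and 5.544% to 10.24% in controls, where naive 3 was the highest. Mitochondrially encoded genes took 2.743%, 3.28% and 2.513% of reads in pppNS 1 to 3, all below the controls (4.044% to 5.537%), and the part of this in the results was not tested. Results are also given without pppNS 3.

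**Figure D1:**
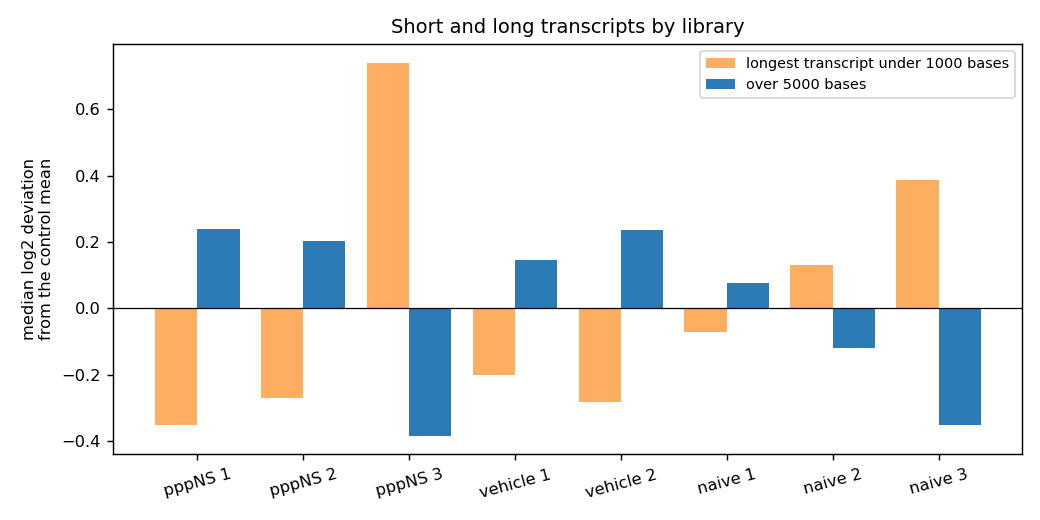
Median log2 deviation from the control mean (vertical axis) of genes whose longest annotated transcript is under 1000 bases (orange) or over 5000 bases (blue), for each of the 8 libraries. The short class of pppNS 3 is at 0.740 and its long class at -0.383, with naive 3 in the same direction (0.388 and -0.350) and pppNS 1 and 2 in the other.

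Transcript length moved with this difference. Genes with a longest transcript under 1000 bases (930 genes) had a median log2 deviation from the control mean of 0.740 in pppNS 3, against -0.351 and -0.269 in pppNS 1 and 2 and -0.281 to 0.388 in controls. Genes over 5000 bases (2878 genes) stood at -0.383 in pppNS 3, against 0.240 and 0.204 in its mates. The plot of short and long transcripts by library shows that naive 3 leaned the same way as pppNS 3. The part of transcript length in the results below was not tested.

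After pppNS, 1079 of 13528 genes (7.98%) differed from the 5 controls at a limma adjusted p under 0.05. Of these, 806 (5.96% of genes tested) rose and 273 (2.02%) fell, and the change was 2-fold or more for 669. The rises were led by the chemokine genes Cxcl10 and Ccl2, the interferon-stimulated genes Ifit1, Rsad2 and Isg15, and Irg1 (now Acod1), whose enzyme makes itaconate in macrophages. The falls were led by Ccr3, the eotaxin receptor of eosinophils, and 2 inward-rectifier potassium channel genes were among them. Fold changes and log2 differences are on the scale of log2(CPM + 0.5), which understates changes of genes at low levels. Under that threshold the count depended on single libraries. It was 646 without pppNS 1, 612 without vehicle 1, 565 without vehicle 2, 661 without naive 1 and 514 without naive 2, and it was 1175 of 13409 genes (8.76%) without pppNS 3. Under quantile scaling 666 genes rose and 444 fell, and with all 17 libraries in the fit 887 rose and 744 fell.

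**Figure D2:**
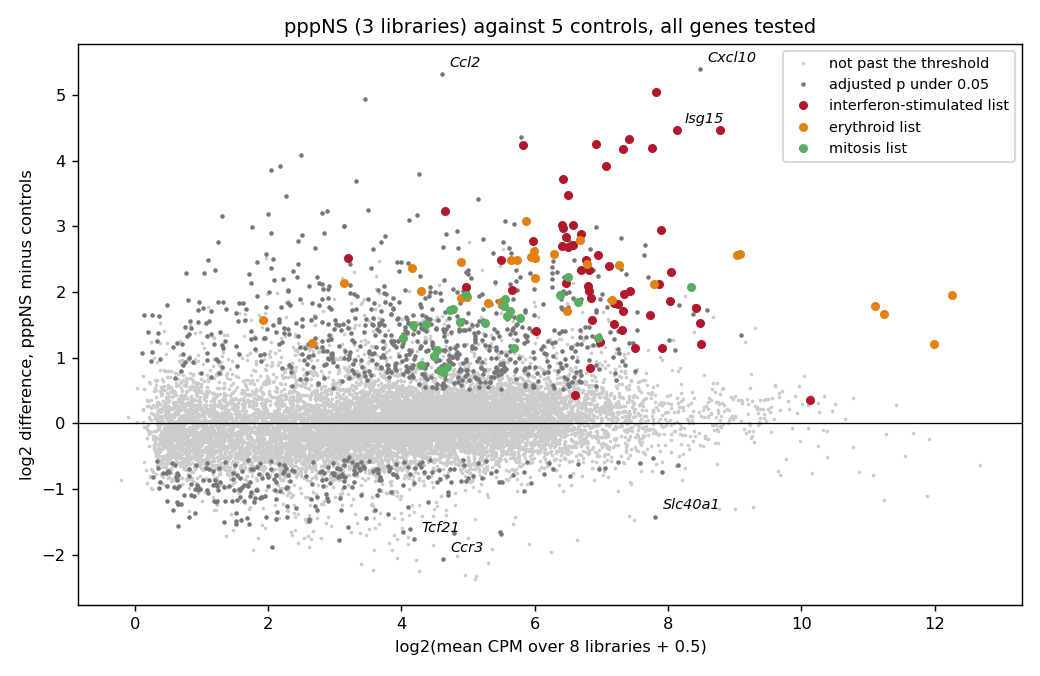
Log2 difference of the 3 pppNS libraries from the 5 controls (vertical axis) against log2 of the mean CPM over the 8 libraries plus 0.5 (horizontal axis) for 13528 genes; dark grey points have an adjusted p under 0.05, and coloured points are all tested members of 3 gene lists whether called or not. Interferon-stimulated genes fill the upper right with 49 of 57 called higher, and the erythroid and mitosis lists lie above 0 throughout.

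Genes induced by type I interferon made up the largest described group of rises. Of the 57 tested members of the interferon-stimulated list, 49 rose and 0 fell, where 5.96% of all genes rose, and the median log2 difference was 2.33 against 0.02 for all genes. For 51 members all 3 pppNS libraries lay above all 5 controls, as for 12.2% of all genes. Without pppNS 3, 51 rose (6.16% of all genes rose and 2.6% fell) and the median was 2.31. The 8 members without a call were Ifi27l2a, Bst2, Samd9l, Slfn5, Ube2l6, Ly6e, Epsti1 and Rnf213, a set named because of its result.

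Cxcl10 encodes a chemokine that draws activated T and NK cells through the receptor CXCR3. It measured 1153, 399.6 and 1216 CPM in pppNS 1 to 3, against 19.6 and 24.3 CPM in vehicle and 16.1, 18.6 and 18.3 CPM in naive libraries. Every pppNS library was far above every control, with replicate 2 the lowest of the 3. The log2 difference was 5.39 ± 0.35 (SE; limma adjusted p = 0.00037), a 41.8-fold rise with a 95% interval of 24.2 to 72.5. The gene lies on chromosome 5 at 92346638 to 92348889 (GRCm38, minus strand).

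Ifit1 binds viral RNA caps that lack host methylation. Its level was 548, 209 and 976 CPM in pppNS libraries, 17.9 and 19.3 CPM in vehicle and 12.7, 11.6 and 10.7 CPM in naive libraries, a log2 difference of 5.05 ± 0.44. Isg15, a ubiquitin-like modifier, stood at 494, 233 and 1405 CPM, against 20.9 and 22.05 CPM in vehicle and 26.0, 24.8 and 28.1 CPM in naive libraries, a log2 difference of 4.46 ± 0.47 (3.78 without pppNS 3). The spread within pppNS was wide for Ifit1 and Isg15, with the lowest value in replicate 2 for both. Rsad2, which encodes the antiviral enzyme viperin, stood at 1158, 465 and 1666 CPM against 30.5 to 65.3 CPM in controls, a 22.1-fold difference (11.7 to 41.9). The GTPase gene Mx1 (672, 251 and 257 CPM against 10.7 to 34.4 CPM) was highest in replicate 1 and lay higher in both vehicle libraries (30.2 and 34.4 CPM) than in all 3 naive ones (10.7 to 15.5 CPM). The other genes among the 10 largest rises were Ifit2, Usp18, Mx2 and Ifit3, with log2 differences between 4.19 and 4.33.

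**Figure D3:**
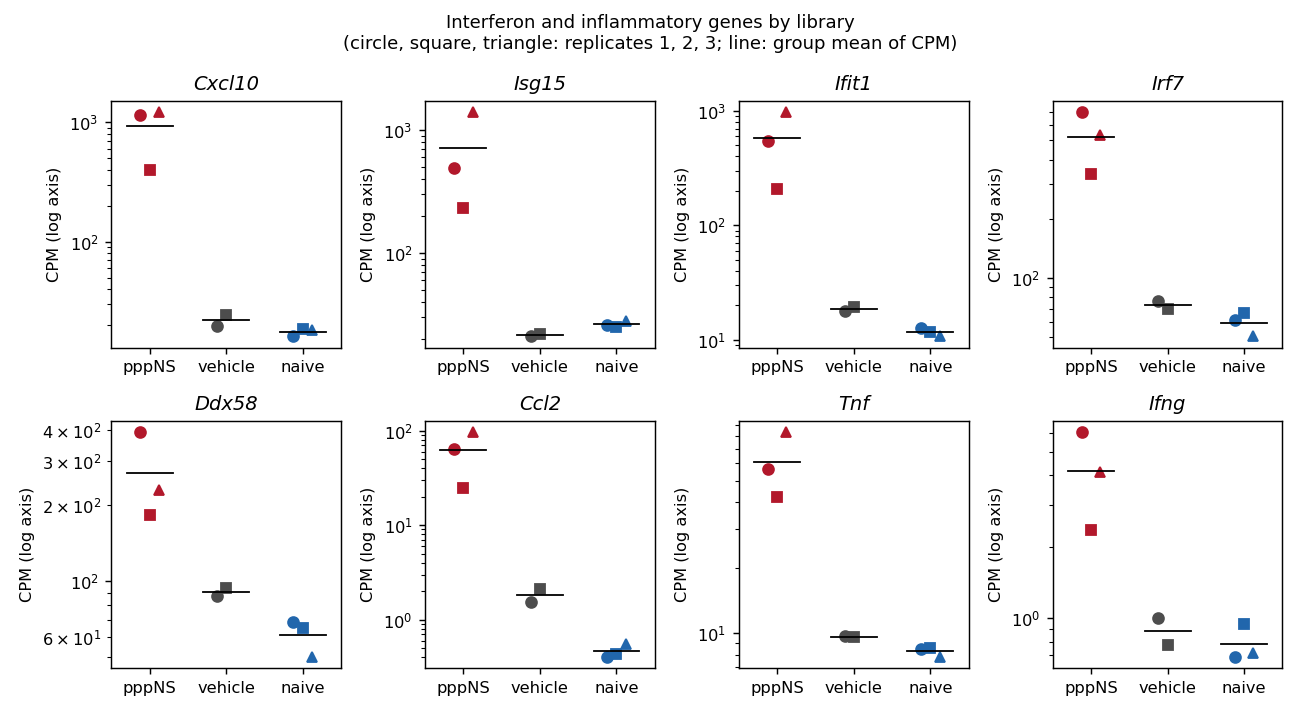
CPM on a log axis for 8 genes in the 3 pppNS, 2 vehicle and 3 naive libraries, with 1 point per library and a line at the group mean. In all 8 panels the lowest pppNS library lies above the highest control, and the lowest pppNS library is replicate 2.

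The promoters of these genes are shown because interferon-activated factors bind paired GAAA repeats, the core of the interferon-stimulated response element. The sequences are the 250 bases before the RefSeq start of each gene (GRCm38.p6), printed 5′ to 3′ on the gene's strand. Capitals mark matches to GAAA, any 2 bases and GAAA again, on either strand, where matches may overlap; in Isg15 3 overlapping matches form a single run.
Cxcl10 (chr5:92348890-92349139, minus strand): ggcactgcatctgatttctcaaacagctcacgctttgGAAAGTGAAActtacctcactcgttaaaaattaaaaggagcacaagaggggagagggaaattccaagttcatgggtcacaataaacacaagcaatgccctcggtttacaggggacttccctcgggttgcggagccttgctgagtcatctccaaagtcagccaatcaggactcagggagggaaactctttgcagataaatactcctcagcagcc
Ifit1 (chr19:34640639-34640888, plus strand): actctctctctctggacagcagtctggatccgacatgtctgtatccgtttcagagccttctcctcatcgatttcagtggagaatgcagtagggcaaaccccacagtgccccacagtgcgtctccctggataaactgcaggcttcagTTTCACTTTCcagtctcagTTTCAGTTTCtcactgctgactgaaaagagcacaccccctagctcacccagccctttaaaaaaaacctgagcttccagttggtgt
Isg15 (chr4:156200819-156201068, minus strand): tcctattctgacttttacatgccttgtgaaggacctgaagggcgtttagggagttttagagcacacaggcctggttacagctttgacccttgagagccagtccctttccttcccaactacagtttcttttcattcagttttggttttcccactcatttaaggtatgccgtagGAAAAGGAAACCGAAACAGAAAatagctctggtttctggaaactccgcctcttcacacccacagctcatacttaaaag
Rsad2 (chr12:26456453-26456702, minus strand): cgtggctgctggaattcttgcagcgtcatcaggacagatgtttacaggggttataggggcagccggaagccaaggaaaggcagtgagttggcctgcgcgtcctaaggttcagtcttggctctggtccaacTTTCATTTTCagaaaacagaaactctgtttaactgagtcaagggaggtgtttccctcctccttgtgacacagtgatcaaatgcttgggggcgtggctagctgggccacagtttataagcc
Counted from the start site, the match of Cxcl10 begins at -213, those of Ifit1 at -104 and -85, those of Isg15 at -78, -72 and -66, and that of Rsad2 at -120. Ifit3 had 2 matches and Ifit2 had 0 in its 2 windows, and 4 of the 10 largest rises (Ccl2, Irg1, Usp18 and Mx2) had no entry in the promoter table.

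Over windows of 300 bases (250 before to 50 after the start), 3.44% of all 32851 windows held a match. Among genes tested that had a window, matched by symbol, 4.03% of 9852 held one, against 12.1% of the 593 that rose and 3.54% of the 198 that fell. The share was 43.2% of 44 for the interferon-stimulated list and 9.91% of 555 for genes that rose outside it. It was 5.71% of 35 for the chemokine and inflammatory lists, 3.12% of 32 for the erythroid and heme lists and 2.33% of 43 for the DNA replication and mitosis lists. A match is a run of letters and not a measured site of binding.

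Among the interferon genes themselves, only Ifng passed the filter on low values, so reads are given for the others. Ifnb1, the gene of interferon beta, had 21, 10 and 10 reads in pppNS libraries, against 0 and 3 reads in vehicle and 0, 1 and 0 in naive libraries. All pppNS libraries lay above all controls, at a level near the limit of detection, where 3 reads equal 0.0525 to 0.107 CPM. The means were 0.395 ± 0.205 CPM (SD, n = 3) and 0.0154 ± 0.0258 CPM (SD, n = 5), a ratio of pooled reads of 21.1 (95% counting interval 7.65 to 81.2). An exact two-sided permutation test gave p = 0.0357, the smallest that 56 assignments of libraries allow. Ifna5 had 8, 5 and 3 reads in pppNS 1 to 3 and 0 in all 5 control libraries, and Ifna2 had 9, 6 and 2 reads against 1 in naive 2 and 0 in the other controls. Ifna4 overlapped between groups, with 6, 7 and 0 reads in pppNS libraries against 4 in naive 2 and 0 in the other controls (exact two-sided permutation p = 0.214). Ifna13 and Ifne had 0 reads in all 8 libraries. The counting interval pools reads over libraries and leaves out the spread between them. Reads copied by PCR are not independent molecules, so it can be too narrow for counting error as well. The limit of 3 reads likewise rests on counting error alone.

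Ifng, made by T and NK cells, stood at 6.03, 2.36 and 4.12 CPM after pppNS and at 0.691 to 1.00 CPM in controls. Its log2 difference was 1.74 ± 0.26 (limma adjusted p = 0.0071), and the groups did not overlap. Of 25 tested genes linked to interferon gamma, which include Ifng itself and chemokine genes listed elsewhere, 19 rose and 0 fell. The median was 1.99, and 5.96% of all genes rose. Gbp5, a guanylate-binding protein of inflammasome control, rose from 18.5 to 31.5 CPM in controls to 309, 102 and 186 CPM. Cxcl9, a further CXCR3 ligand, stood at 209, 53.3 and 219 CPM against 19.3 to 31.9 CPM. Without pppNS 3, 20 of the 25 rose.

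Genes of RNA sensing and signalling rose in part. Of 23 tested members 10 rose, 0 fell and 13 were without a call, where 5.96% of all genes rose. The median log2 difference was 0.48 (12 rose without pppNS 3, with a median of 1.08). Ddx58, the gene of RIG-I, measured 389.9, 182 and 230.3 CPM, against 87.2 and 93.7 CPM in vehicle and 68.5, 64.9 and 50.01 CPM in naive libraries. The log2 difference was 1.83 ± 0.29 (limma adjusted p = 0.0088), and both vehicle libraries lay above all naive ones. Ifih1, which encodes the long double-stranded RNA sensor MDA5, rose from 17.7 to 26.2 CPM to 301, 99.3 and 174 CPM. Dhx58, the gene of the regulatory family member LGP2, rose by 2.70 and Trim25, a ubiquitin ligase of the pathway, by 1.82 on the log2 scale. Irf7, the factor that amplifies interferon alpha transcription, measured 697, 337 and 534 CPM against 50.5 to 76.9 CPM. The adaptor gene Mavs stood at 17.9 to 28.2 CPM in pppNS and 20.0 to 28.2 CPM in control libraries (log2 difference -0.19, adjusted p = 0.59), and Irf3 had a log2 difference of -0.09 (adjusted p = 0.80). Tlr9 was listed at 83.2, 54.5 and 2.20 CPM in pppNS 1 to 3 and at 6.60 CPM in naive 3, against 25.3 to 37.0 CPM in the other controls, so that its mean does not describe the group.

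Inflammatory genes rose beside the interferon-stimulated ones. Of 20 tested chemokine genes 10 rose and 0 fell (median 1.60), and of 28 cytokine, feedback and NF-kB genes of inflammation 15 rose and 0 fell (median 1.29). Without pppNS 3 the rises numbered 10 and 21. Over all genes tested 5.96% rose, and 6.16% without pppNS 3. Ccl2, which recruits monocytes, measured 64.8, 25.0 and 96.1 CPM, against 1.55 and 2.11 CPM in vehicle and 0.405, 0.437 and 0.557 CPM in naive libraries, a log2 difference of 5.31 ± 0.50. The neutrophil attractant Cxcl1 stood at 13.2, 16.2 and 9.85 CPM against 0.0715 to 0.715 CPM, and was highest in pppNS 2, unlike the interferon-stimulated genes above.

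Il6 measured 12.0, 3.99 and 15.6 CPM against 0.0397 to 0.280 CPM in controls, and Tnf 56.6, 42.3 and 83.3 CPM against 7.82 to 9.69 CPM. Both cytokine genes were above every control in all 3 pppNS libraries. Irg1 stood at 33.5, 9.83 and 38.8 CPM against 0.105 to 0.682 CPM, a log2 difference of 4.94 ± 0.43. Il1a rose 4.24-fold (3.25 to 5.55) with a narrow spread of 22.8 to 27.2 CPM in pppNS. Members without a call included the homeostatic chemokines Cxcl12, Cxcl13, Ccl19 and Ccl21a, with log2 differences between -0.32 and 0.07. The NF-kB subunit genes Nfkb1, Nfkb2, Rel and Relb had values between 0.19 and 0.40 and no call. Of 18 immediate early genes 7 rose (5.96% of all genes did), led by the stress factor Atf3 (32.5, 15.8 and 27.1 CPM against 1.27 to 2.82 CPM). Of the 18, 8 rose without pppNS 3 but 4 without naive 1.

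Class I antigen presentation showed few calls. Of 22 tested genes 2 rose, which were Tap1 of the peptide transporter (log2 difference 1.26 ± 0.25) and the nonclassical gene H2-T22 (1.28 ± 0.30), and the median was 0.39 (0.14 without pppNS 3). Neither was called without pppNS 1, vehicle 1 or vehicle 2, and in the fit with 3 groups described below 0 of the 22 were called against vehicle or against naive. These shares are near the background of 5.96%, and close relatives of H2-T22 can share reads.

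Genes of red cell formation formed a separate group of rises. Of 30 tested erythroid genes 13 rose and 0 fell, with a median log2 difference of 2.17, and for 22 all pppNS libraries lay above all controls, as for 12.2% of all genes. Of 14 genes of heme synthesis and iron uptake 7 rose (median 1.72), where 5.96% of all genes rose. Without pppNS 3 the counts were 10 and 5, and the medians 1.82 and 1.29. The erythroid count was 8 without pppNS 1 and 5 without any one of pppNS 2, vehicle 2 or naive 2. It was 0 with all 17 libraries in the fit, where its median stayed at 2.17. The heme count was 3 without pppNS 2, 2 without vehicle 2 or naive 2, and 1 with all 17 libraries. With 3 groups in the fit (equal mean of vehicle and naive) the erythroid and heme counts were 26 and 11, where 944 of 13528 genes rose. With DESeq2 they were 24 and 13, where 1468 rose. Sptb, the red cell beta spectrin, measured 158, 218 and 269.8 CPM, against 12.7 and 24.7 CPM in vehicle and 62.3, 30.1 and 41.5 CPM in naive libraries, a log2 difference of 2.79 ± 0.45. Tal1, a transcription factor of the erythroid lineage, stood at 69.6, 110.5 and 144 CPM against 8.66 to 31.6 CPM. Groups did not overlap for either gene, and the vehicle libraries were the lowest.

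Slc25a37, which imports iron into mitochondria for heme, measured 369, 461 and 949 CPM against 123 to 224 CPM (limma adjusted p = 0.051 without vehicle 2 and 0.058 without naive 2). Globin genes were without a call, with Hbb-bs at 1.20 and Hba-a1 at 1.96. Summed over 30 erythroid genes the level was 10380, 9992 and 77100 CPM in pppNS 1 to 3 and 3289 to 13460 CPM in controls, so the sum of naive 3 exceeded those of pppNS 1 and 2. In bulk tissue more cells of a type and more RNA per cell cannot be told apart.

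Genes of cell division also held many rises, in counts that single libraries moved. Of 25 tested mitosis genes 16 rose and 0 fell (median 1.54), where 5.96% of all genes rose. For 21 of the 25 all pppNS libraries lay above all controls, as for 12.2% of all genes. Without pppNS 3, 11 rose (median 1.30), where 6.16% of all genes rose. Of 27 DNA replication genes 11 rose (median 1.28), and 4 did without pppNS 3 (median 0.94). The mitosis count was 8 without pppNS 2 or vehicle 2, 9 without vehicle 1 or naive 2, 10 without naive 3 and 0 with all 17 libraries in the fit. The DNA replication count was 1 without pppNS 2, vehicle 2 or naive 2, 3 without vehicle 1, 4 without naive 3, 6 without naive 1 and 1 with all 17 libraries. With 3 groups in the fit (equal mean of vehicle and naive) the mitosis and DNA replication counts were 21 and 18, where 944 of 13528 genes rose. With DESeq2 they were 24 and 23, where 1468 rose. Mki67, a marker of cycling cells, measured 437, 504 and 921 CPM, against 84.4 and 142 CPM in vehicle and 205, 128 and 166 CPM in naive libraries, a log2 difference of 2.07 ± 0.33. Top2a, the topoisomerase of chromosome untangling, stood at 169.6, 219 and 193 CPM against 62.3 to 111 CPM. The kinetochore motor gene Cenpe stood at 49.8, 44.8 and 79.9 CPM against 11.6 to 19.3 CPM. Rrm2, which supplies deoxynucleotides for replication, had 103, 185 and 174 CPM against 24.7 to 69.0 CPM (limma adjusted p = 0.057 to 0.077 without pppNS 2, vehicle 2 or naive 2). No group overlap was seen for these 4 genes. Which cells carried these transcripts was not tested.

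**Figure D4:**
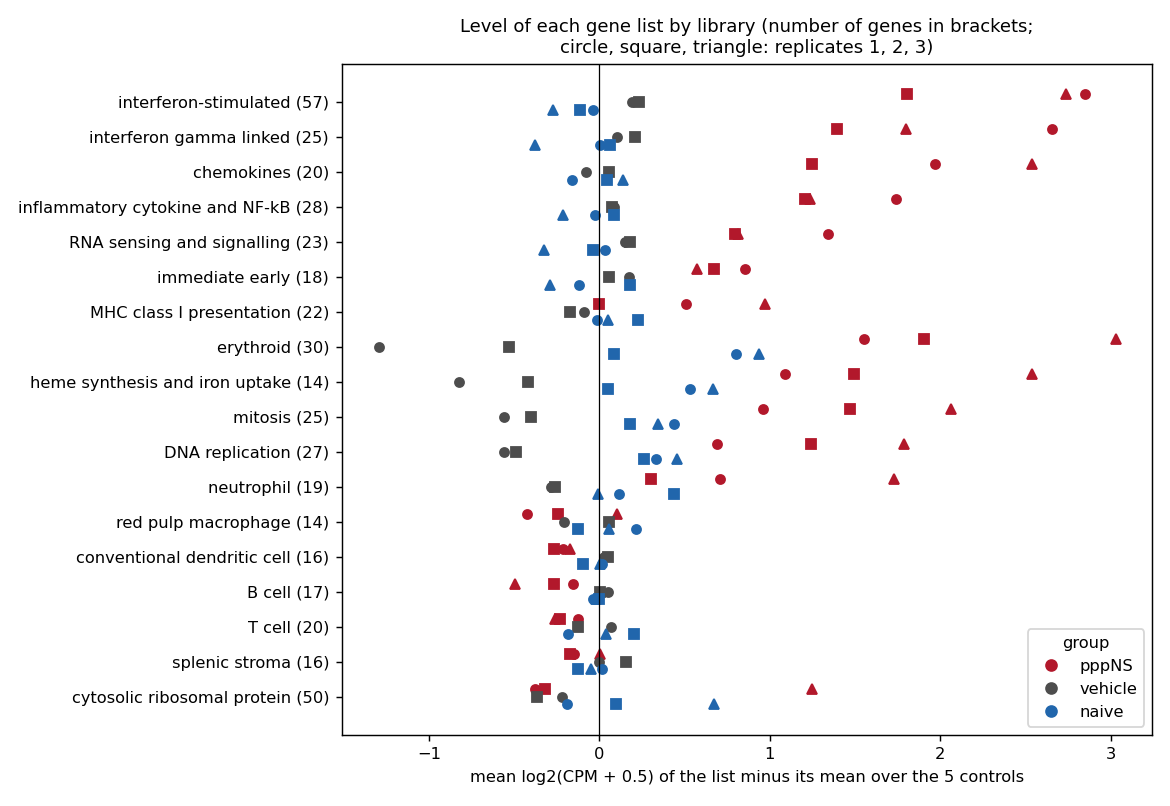
Mean log2(CPM + 0.5) of the tested genes of each list in each library, minus the mean over the 5 controls (horizontal axis), with circles, squares and triangles for replicates 1, 2 and 3. The pppNS points lie right of all controls in the interferon-stimulated, inflammatory, erythroid and cell division lists, with replicate 2 lowest in the first set and replicate 1 lowest in the last.

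The order of the pppNS mice differed between the gene groups. Of the 57 interferon-stimulated genes, pppNS 2 was the lowest of the 3 libraries for 50 and pppNS 1 for 0. Of the mitosis genes pppNS 1 was the lowest for 22 of 25, of the DNA replication genes for 24 of 27, of the erythroid genes for 23 of 30 and of the heme genes for 13 of 14. Over all 13528 genes the lowest library was pppNS 1 for 4497, pppNS 2 for 2761 and pppNS 3 for 6270. The mean log2 level of the interferon-stimulated list was 8.21, 7.16 and 8.10 in pppNS 1 to 3, against 5.55 and 5.60 in vehicle and 5.09 to 5.32 in naive libraries. That of the erythroid list was 6.62, 6.97 and 8.09, against 3.77 and 4.54 in vehicle and 5.15 to 6.00 in naive libraries. This is a description of 3 mice and has no test.

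Counts for the erythroid and division groups were higher against vehicle than against naive. These counts come from a fit with pppNS, vehicle and naive as 3 groups, added after the data were seen, which called 694 genes against vehicle (5.13%) and 810 against naive (5.99%). Against vehicle, 25 of 30 erythroid genes rose with a median of 3.18 (4.63% of all genes rose), and against naive 8 rose with a median of 1.59 (4.26%). Mitosis genes gave 19 of 25 against vehicle and 9 against naive, and DNA replication genes 17 of 27 and 5. Interferon-stimulated genes gave 40 of 57 against vehicle (median 2.13) and 47 against naive (median 2.58). The vehicle and naive comparisons share the pppNS libraries. In a fit of pppNS and vehicle alone, limma called 0 of 13259 genes (1632 at an unadjusted p under 0.05; smallest adjusted p 0.0844) and edgeR also called 0. In a fit of pppNS and naive alone, limma called 290 of 13412 genes (2.16%).

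The largest falls were smaller than the largest rises. Of the 273 genes that fell, 263 were in none of the lists. The lists together hold a small part of all genes tested, so nothing is read from this count. Ccr3 measured 5.17, 5.98 and 13.1 CPM, against 21.9 and 25.3 CPM in vehicle and 43.5, 34.5 and 44.5 CPM in naive libraries, a log2 difference of -2.06 ± 0.34 (limma adjusted p = 0.011). Hpgd, which degrades prostaglandins, stood at 16.5, 19.6 and 19.1 CPM against 45.0 to 74.0 CPM, a log2 difference of -1.65 ± 0.19. The potassium channel genes Kcnj16 and Kcnj10 fell by 1.78 and 1.61 on the log2 scale. Genes among the 10 largest falls were chosen for groups that do not overlap, which 8.63% of all genes showed in this direction, so nothing is read from it. Against naive alone in the 3-group fit, 1.73% of all genes fell, and 0.495% against vehicle. Arvcf, Tlr11, Vstm4, Cd300lb and Rims3 were also among the 10 largest falls, with log2 differences between -1.65 and -1.44. Tlr11 lost its call without any one library other than pppNS 1 or 3 (limma adjusted p = 0.051 to 0.077), and Vstm4 without any one other than pppNS 2 or 3 (0.073 to 0.095).

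Slc40a1, the iron exporter ferroportin of red pulp macrophages, measured 91.4, 132 and 102 CPM, against 213 and 290.1 CPM in vehicle and 387, 254 and 323 CPM in naive libraries. Its log2 difference was -1.42 ± 0.22 (limma adjusted p = 0.0088). With Mrc1 (-0.79) it made 2 of 14 red pulp macrophage genes that fell, where 2.02% of all genes fell, and Mrc1 lost its call without any one library other than pppNS 3 (limma adjusted p = 0.059 to 0.12). Spic, the defining factor of these cells, had a log2 difference of 0.82 and no call (adjusted p = 0.081). The list's summed level was 1607 to 2591 CPM in pppNS and 1710 to 2196 CPM in controls. Tcf21, a transcription factor of the splenic mesenchyme, stood at 5.70, 10.2 and 5.16 CPM against 20.4 to 32.8 CPM, a log2 difference of -1.76 ± 0.25, and was the 1 stromal gene of 16 with a call. Tlx1, which specifies the spleen, had 9.49, 14.0 and 9.28 CPM against 15.3 to 27.1 CPM, without overlap and without a call (adjusted p = 0.076).

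Other cell type lists held few calls, where 5.96% of all genes rose and 2.02% fell. Of 16 conventional dendritic cell genes 2 fell, Cd209a (1.15, 1.10 and 0.889 CPM against 3.80 to 6.42 CPM) and Xcr1, the receptor that marks cross-presenting cells (log2 difference -0.70). Of 17 B cell genes the complement receptor Cr2 (-0.74) and Cd1d1 (-0.58) fell and the activation marker Cd83 rose (0.63). The calls of Xcr1, Cr2, Cd1d1 and Cd83 were close to the threshold, while Cd209a had a limma adjusted p of 0.0018 (0.0037 without pppNS 3). Xcr1 lost its call without pppNS 3 (limma adjusted p = 0.071) and without any one other library except naive 3, and Cr2 without pppNS 3 (0.053) and without any one other library. Cd1d1 lost its call without any one library other than pppNS 3 (0.069 to 0.094), and Cd83 without any one other than pppNS 2 or 3 (0.060 to 0.090). Of 20 T cell genes 0 rose and 0 fell in limma, with a median of -0.18. Of 16 inflammatory monocyte genes Fcgr1 rose (1.25) and Cx3cr1 fell (-1.32). Of 19 neutrophil genes the 3 that rose were the collagenase Mmp8, the decoy receptor Il1r2 and Trem1, with log2 differences of 1.80, 2.31 and 1.56. The neutrophil list summed to 547.9, 408.2 and 1446 CPM in pppNS 1 to 3 and to 251.1 to 432.5 CPM in controls, and its part in the inflammatory rises was not tested. Hdc, the histamine-forming enzyme of basophils and myeloid cells, was the 1 of 5 mast cell and basophil genes to rise (2.76). Fcgr1, Cx3cr1 and Hdc were chosen after their values were seen.

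**Figure D5:**
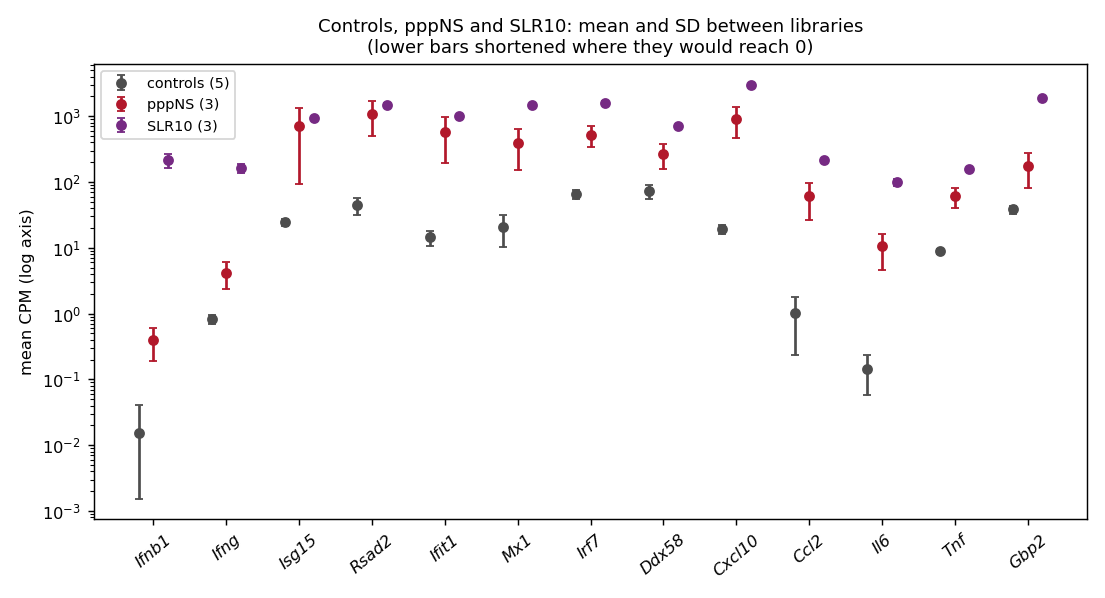
Mean CPM on a log axis with SD between libraries for 13 genes in the 5 controls, the 3 pppNS and the 3 SLR10 libraries; lower bars are shortened where they would reach 0. The pppNS means lie between controls and SLR10 for all 13 genes. The bars of pppNS for Isg15 and Rsad2 span the SLR10 mean, while Ifnb1 and Ifng lie far below SLR10.

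Compared with SLR10, another RNA agent of the series (3 libraries), the pppNS response differed in size by gene group. The same dose text stands with both agents, and the time of collection is not stated for either. In a fit of all 17 libraries, 5653 of 14012 genes (40.3%) differed, 2795 (19.9%) higher and 2858 (20.4%) lower in pppNS. Of 57 interferon-stimulated genes 47 were lower in pppNS and 0 higher, with a median of -1.37 against 0.04 for all genes. Of 25 interferon gamma linked genes 24 were lower (median -2.19). Of 28 inflammatory genes 22 were lower (median -1.26).

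The distance to SLR10 varied by gene. Isg15 had a mean of 927 ± 44.1 CPM in SLR10 (SD, n = 3) and 710.3 ± 615 CPM in pppNS, a log2 difference of -0.77 with an interval of -1.82 to 0.29 (limma adjusted p = 0.22). Without pppNS 3 the pppNS mean of Isg15 was 363 CPM and the difference -1.45 (limma adjusted p = 0.0076). For Rsad2 the difference was -0.65 (-1.72 to 0.42; adjusted p = 0.31), and -1.04 without pppNS 3 (adjusted p = 0.12). For Gbp2, a guanylate-binding protein gene, SLR10 stood at 1915 ± 70.4 CPM and pppNS at 178 ± 96.8 CPM, a log2 difference of -3.63 (-4.40 to -2.87). For Ifng the difference was -5.19 (-6.27 to -4.11), and Ifnb1 had a mean of 217 CPM in SLR10 against 0.395 CPM in pppNS. Erythroid and division genes went the other way, with 17 of 30 erythroid genes (median 3.65) and 19 of 25 mitosis genes (median 2.37) higher in pppNS than in SLR10. Without pppNS 3, or without any one SLR10 library, the erythroid count was 1 and the mitosis count 3 to 5. Without pppNS 2 they were 3 and 8. Medians were 3.24 to 3.73 and 2.07 to 2.47 in these fits. Without pppNS 1 the erythroid and mitosis counts were 16 and 18. With only pppNS and SLR10 in the fit they were 26 and 25, where 2113 of 13350 genes were higher in pppNS. With edgeR they were 26 and 20, where 2748 of 14012 genes were higher. Slc40a1 also differed in size, at 18.0 ± 2.23 CPM in SLR10 and 108 ± 20.8 CPM in pppNS (log2 difference 2.55, 2.05 to 3.04).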

How the data were processed

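RNA from mouse spleen was sequenced in 17 libraries, of which 8 are compared here. Per the labels' protocols, tissue was collected into RNAlater, RNA was extracted with Trizol, and 500 ng of it entered a TruSeq Stranded mRNA preparation. The submitters' processing notes name the builds GRCm38 and mm10 and the tools HTSeq, edgeR, TopHat2 2.0.6, TopHat, SAMtools 1.4 and FastQC. The annotation and the strand setting are not given in the sources used here. The deposited table holds a normalised signal, which the authors made by scaling reads per gene and which is named CPM per the file headers. Its columns sum to 836000, 782000 and 1480000 in pppNS 1 to 3 and to 696000 to 748000 in the controls. Every value was a whole multiple of 1 read (100% within 0.01 reads), so reads were recovered for count tests.

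Of 39184 lines, 5 without a gene name (28.1% to 46.1% of reads), 699 named #N/D, 27 bearing dates in place of names and 113 surplus lines of 87 repeated names were left out. Genes reaching 1 CPM in 2 or more of the 8 libraries were tested on log2(CPM + 0.5) with limma 3.58.1 (R 4.3.3), a mean-variance trend, Benjamini-Hochberg adjustment over all genes and a threshold of 0.05; tests are two-sided and intervals 95%. Vehicle and naive were pooled as 1 control group. SLR10 was compared in a fit of all 17 libraries. The calculation was checked on simulated data with equal dispersion for all genes and no outlying library, so that check gives no error rates for these libraries. Alternatives were other pseudocounts, filters, scalings and controls, a replicate block, library weights, edgeR 4.0.16 and DESeq2 1.42.0 on recovered reads, and each library left out in turn.

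The members were chosen by labels alone. Earlier results of these data were known when the members, gene lists and tests were chosen. Named genes were the 10 largest rises and 10 largest falls among called genes whose groups did not overlap and whose mean was 5 CPM or more, up to 4 members of each described list by adjusted p, and a small set of interferon, sensor and cytokine genes; other list members are named as examples, chosen after their values were seen. Gene models named by number and receptor segments were left out. Positions and transcript lengths come from GENCODE vM21, and promoters from RefSeq (GRCm38.p6). Some results are not reported here.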

Additional observations from a re-analysis of the deposited data

Results flagged for a closer look

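The table has lines without a gene name, which no comparison uses. In pppNS replicate 3 the second of these lines held 7.738% of the library's reads, against 1.64% and 1.70% in the other pppNS libraries and 1.30% to 2.11% in the 5 controls, so that it lay above every control. The fifth such line held 33.5% of its reads, against 17.6% to 20.2% in controls, and the first 4.84%, against 7.33% to 12.9%. What these lines count is not stated. For each of 86 named genes the highest and lowest of the 5 control libraries were tested for a gap to their neighbours, and 0 stood out.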

How the results depend on the processing

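The number of genes past the threshold was 1079 as reported. It was 0 with the vehicle libraries as the sole control, 290 with the naive libraries alone, 694 against vehicle with 3 groups in the fit (chosen after seeing the data), 1631 with 17 libraries in the fit, 2574 with library weights and 2373 with DESeq2; with edgeR it was 1128. Each library left out in turn gave 514 (without naive 2) to 1175 (without pppNS 3). Without pppNS 3 and naive 3 together it was 1528. For the SLR10 comparison these ranged from 3889 to 6216 around 5653. With a block for the replicate number 1708 genes were called (1244 higher, 464 lower), and 6196 in the SLR10 comparison. The block raised the heme count from 7 to 13 and the DNA replication count from 11 to 21. The numbers were not taken as pairs over the 5 controls, since correlations did not follow them throughout. With group means taken out, equal numbers correlated over genes at 0.606, 0.278 and 0.755 between pppNS and naive. They correlated at -0.103 and 0.0456 between pppNS and vehicle, and at -0.299 and -0.309 between vehicle and naive. Unequal numbers of pppNS and naive ranged from -0.716 to 0.53, and pppNS 2 correlated at 0.53 with naive 1. Values of the 2 vehicle libraries mirror each other by construction. Of 86 named genes 73 were called; 72 of these kept their call in edgeR, 73 in DESeq2, 71 without pppNS 3 (Xcr1 and Cr2 lost it), 49 against naive alone and 0 against vehicle alone, and 0 named genes reversed under any of these. Quantile scaling moved the median of all genes to -0.08. Depth limits the interferon genes other than Ifng, which had at most 21 reads in a library.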

Other observations

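Of the 806 genes that rose, 652 were in none of the gene lists. The lists hold a small part of all genes tested, so nothing is read from that count. The following were chosen after their values were seen. Gdf15, a secreted factor of the TGF-beta family that erythroid precursors and stressed cells make, measured 13.1, 11.5 and 24.6 CPM in pppNS 1 to 3 and 0.914 to 1.95 CPM in controls, a log2 difference of 3.23 (limma adjusted p = 0.00088). It was also higher in pppNS than in SLR10, where its mean was 2.84 CPM. The metallothionein gene Mt2 stood at 26.6, 59.8 and 161 CPM against 2.84 to 13.9 CPM, and the collagenase gene Mmp13 at 39.4, 5.5 and 26.1 CPM against 0.762 to 1.32 CPM. Cdkn1a, the cell cycle inhibitor p21, stood at 33.2, 16.5 and 44.0 CPM against 4.55 to 5.44 CPM, in the same libraries in which 16 of 25 mitosis genes rose. Cxcl5, a neutrophil chemokine, stood at 12.5, 9.13 and 13.8 CPM against 0.682 to 2.03 CPM. For these 5 genes all pppNS libraries lay above all controls.

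Xist was present in all 8 libraries (336.9 to 735.4 CPM) and Ddx3y, Kdm5d and Eif2s3y had 0 reads.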
